A study of Caenorhabditis elegans with 2 samples.

Results

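The DREAM complex genes of Caenorhabditis elegans were examined for peaks of the transcription factor UNC-62 in embryos. The set held 9 protein-coding genes of 19973 on the nuclear chromosomes. They are lin-35, efl-1, dpl-1, lin-9, lin-37, lin-52, lin-53, lin-54 and lin-36. The genes were chosen by name, with earlier results of these data known, among them the presence of peaks at some of the starts. Counts and signals at these starts are therefore given as a description, with no test. The data were UNC-62 peak lists from ChIP-seq, chromatin immunoprecipitation followed by sequencing, on strain OP600, in 1 group of 2 biological replicates from separate biosamples and with no second condition. Worms of this strain carried the unc119(ed3) allele together with the transgene wgIs600, in which unc-62 is fused to TY1, EGFP and FLAG tags and unc119 is supplied. Both libraries came from whole mixed-stage embryos of mixed sex, so a peak is an average over all embryonic cells. The labels give UNC-62 as the antibody's target and do not say which part of the fusion it bound. The promoter of the fusion and the read depths are not stated, so absence of a peak does not show absence of UNC-62. No control library is among the samples, though a control was used in peak calling, per the deposited descriptions.

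DREAM joins a retinoblastoma-like pocket protein and an E2F-DP pair to a core of subunits known as MuvB, and it is best known for repressing cell cycle genes in cells that do not divide. In C. elegans its genes belong to the class B synthetic multivulva (synMuv B) group, whose loss together with a class A gene gives extra vulvae, and they also keep germline genes silent in the soma. UNC-62 is the worm member of the Meis/Prep homeodomain family, which acts with PBC and Hox partners.

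Of the 9 genes, 5 had a UNC-62 summit at the start, namely lin-36, lin-54, lin-9, efl-1 and lin-53. A summit is the highest point of a peak, taken here from the authors' list of peaks that passed the irreproducible discovery rate (IDR) step. A gene was counted when a summit fell in its start window, which spans 1000 bp before the start and 500 bp after it. Sequences of 101 bp centred on 4 of these summits, on the plus strand of build ce11, show the letters that the peaks share and those that they lack. The sequences are from the RefSeq WBcel235 assembly. Capitals mark TTTGAA in lin-54 and lin-9 and GAGAGA in lin-36, all read on the minus strand. In efl-1 they also mark the E2F-type site GCGGGAA. The remaining capitals are TGGAGCGC in lin-54, lin-9 and efl-1, and ACGCAG in lin-54 and efl-1.
lin-36, chrIII:8021150-8021250: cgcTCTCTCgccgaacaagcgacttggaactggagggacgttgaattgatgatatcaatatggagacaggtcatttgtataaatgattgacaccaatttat
lin-54, chrIV:13240652-13240752: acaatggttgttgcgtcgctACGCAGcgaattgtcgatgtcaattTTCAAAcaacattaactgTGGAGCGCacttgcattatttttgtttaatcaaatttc
lin-9, chrIII:8904226-8904326: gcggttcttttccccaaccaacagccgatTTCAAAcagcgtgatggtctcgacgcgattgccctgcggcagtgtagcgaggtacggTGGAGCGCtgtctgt
efl-1, chrV:16965809-16965909: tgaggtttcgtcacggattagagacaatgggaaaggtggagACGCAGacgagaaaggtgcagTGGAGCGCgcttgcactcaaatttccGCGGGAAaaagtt

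The 5 genes with a summit made up 55.6% of the DREAM set, against 6.18% of all protein-coding genes (1234 of 19973). No IDR summit lay in the body of any of the 9 genes, so the count was also 5 of 9 with the gene body added, against 8.58% of all genes. The subunits with a summit were spread over the complex: a MuvB scaffold, a histone-binding subunit, a DNA-binding subunit, the E2F and the associated protein LIN-36. Those without included the pocket protein, the DP partner and a pair of small MuvB subunits. The lists held 2754 IDR peaks, 17083 pooled peaks, and 21749 and 30000 peaks for replicates 1 and 2. The IDR list equals the 2754 strongest pooled peaks in signal, and its weakest peak had a signal of 59.9. Signal is the value that the authors' peak caller gave each peak, and it ranks peaks within a list.

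**Figure D1:**
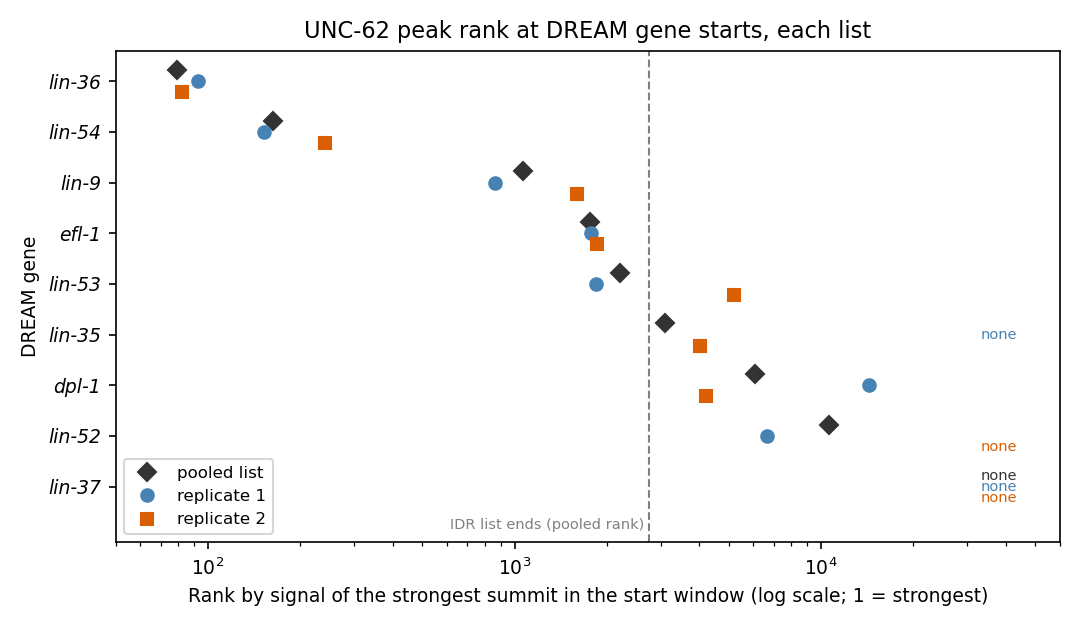
Rank by signal (log scale) of the strongest summit in the start window of each DREAM gene, in the pooled list (diamonds), replicate 1 (circles) and replicate 2 (squares); "none" marks a list with no summit there. The dashed line is the pooled rank 2754 at which the IDR list ends. The points of lin-36 and lin-54 lie far to the left, lin-35 lies just right of the line at 3099, and lin-37 has no summit in any list.

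The strongest peak stood at lin-36 (WBGene00003021, chromosome III 8016648 to 8020873, minus strand). The gene encodes a THAP-domain protein of the synMuv B class that works with DREAM and was not among the subunits of the complex as it was first purified. Its peak covered 8021061 to 8021301, and its intergenic summit was 327 bp upstream. The signal was 287.5, rank 79 of the 2754 IDR peaks. Its rank was 93 in replicate 1 (signal 178.7) and 82 in replicate 2 (signal 111.9), so both replicates placed it near the top. No other protein-coding gene had this summit in its start window. The nearest protein-coding start upstream, of F44B9.2, lay across a gap of 1589 bp. A non-coding RNA gene, F44B9.11, lay 93 bp from the summit, nearer than the start of lin-36.

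The peak at lin-54 was the second strongest of the set and lay closer to another gene. LIN-54 (WBGene00003037, chromosome IV 13241044 to 13243401, plus strand) is the DNA-binding subunit of MuvB. The peak covered 13240611 to 13240784, with a signal of 231.2 and rank 163 in the IDR list. It ranked 152 in replicate 1 (signal 152.2) and 241 in replicate 2 (signal 77.0), and the replicates' summits lay 9 bp apart. The summit was 342 bp upstream of lin-54 and 51 bp upstream of rpl-12, a ribosomal protein gene on the opposite strand. The 2 starts lie 393 bp apart, and which gene the peak belongs to was not tested.

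The lin-9 peak was of middle strength and had no competing start in its window. LIN-9 (WBGene00002998, chromosome III 8900237 to 8904131, minus strand) is the scaffold of MuvB. The peak covered 8904088 to 8904463, with its summit 145 bp upstream, the shortest distance of the set. Its signal was 107.3, rank 1066 in the IDR list. It ranked 861 in replicate 1 (signal 77.4) and 1595 in replicate 2 (signal 32.8). A further IDR summit lay outside the window, 1334 bp upstream of lin-9, and was the nearest to a window edge of any outside it. That peak was weak (signal 60.7, rank 2698) and lay 150 bp from the start of the divergent gene unc-32, a subunit gene of the vacuolar ATPase. Inside the windows, the summit farthest from its start was the lin-54 summit at 342 bp.

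The efl-1 gene had a peak in the weaker part of the list that was even between replicates. EFL-1 (WBGene00001161, chromosome V 16958590 to 16965675, minus strand) is the E2F transcription factor of the complex. The peak covered 16965671 to 16966046, with the summit 184 bp upstream, a signal of 81.0 and rank 1768. It ranked 1780 in replicate 1 (signal 52.5) and 1863 in replicate 2 (signal 30.4), while the replicates' summits lay 54 bp apart. The window of fbxa-90, an F-box gene on the opposite strand, also held this summit, at 955 bp from its start.

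The lin-53 peak was the weakest of the 5 and uneven between replicates. LIN-53 (WBGene00003036, chromosome I 9618196 to 9619760, minus strand) is a histone-binding WD-repeat protein that DREAM shares with other chromatin complexes. Its peak covered 9619806 to 9620181, with a signal of 69.4 and rank 2214. It ranked 1842 in replicate 1 (signal 51.3, q = 0.00244 in the authors' list) and 5186 in replicate 2 (signal 17.7, q = 0.36). Of the 2706 nuclear IDR peaks found in both replicates, 20.5% had a q over 0.05 in replicate 2, against 0.591% in replicate 1. The summit lay 234 bp upstream of lin-53 and 233 bp upstream of the divergent gene nra-2, so it was midway between the 2 starts. With replicate 2 alone lin-53 had no summit among the 2754 strongest peaks, and 4 DREAM genes were left.

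**Figure D2:**
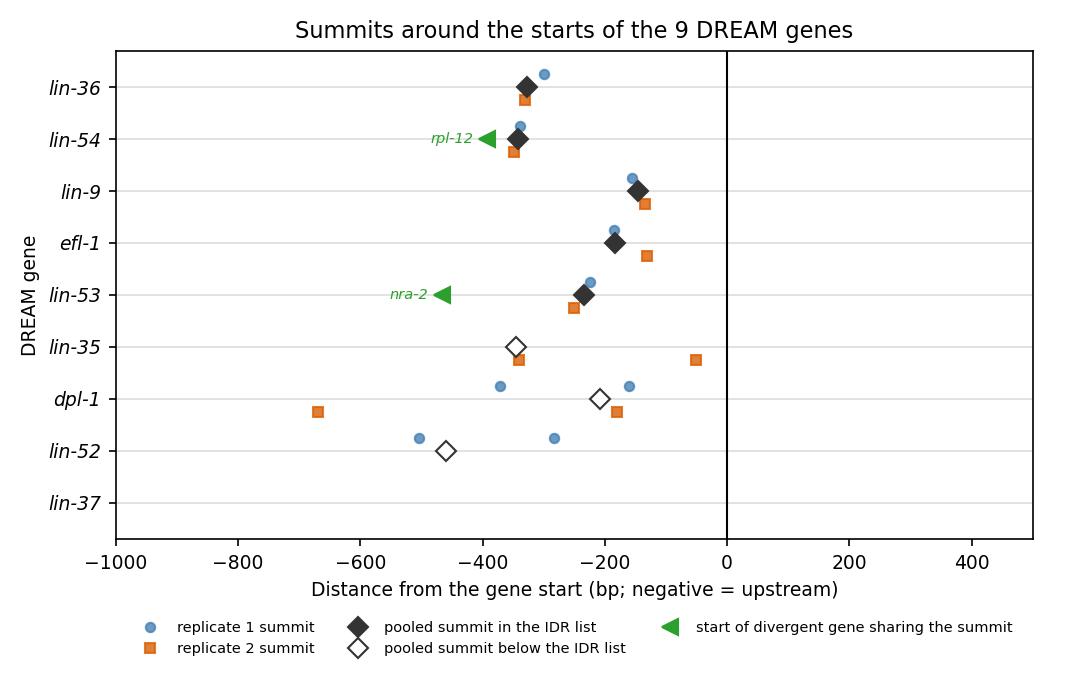
Position of every summit in the start windows of the 9 DREAM genes, in bp from the start (negative is upstream). Filled diamonds are pooled summits in the IDR list, open diamonds pooled summits below it, circles replicate 1, squares replicate 2, and triangles the starts of divergent genes that share the summit and lie within the plotted range. Every IDR summit lies between 145 and 342 bp upstream, and the lin-54 summit lies beside the start of rpl-12.

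All 5 summits lay upstream of the start in intergenic sequence, at a median of 234 bp. Among all 1234 genes with an IDR summit in the window, the strongest summit was upstream in 90.6% and at a median of 287 bp. The median signal was 107.3 over the 5 DREAM genes and 90.5 over the 1234 genes. Of the 5 peaks, 3 were shared with the window of another gene, against 239 of 1008 peaks in any start window (23.7%). Each summit was also counted for its nearest protein-coding start alone, a rule added after seeing the data. With it lin-36, lin-9 and efl-1 remained, 3 of 9 genes against 4.91% of all genes. Non-coding genes were left out, among them F44B9.11, which lay 93 bp from the lin-36 summit and so nearer than lin-36. Under that rule the lin-54 peak went to rpl-12 and the lin-53 peak to nra-2, whose start was nearer at 233 bp against 234 bp.

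The pocket protein gene lin-35 came close to the IDR list in pooled rank alone, with no summit in its window in replicate 1. LIN-35 (WBGene00003020, chromosome I 5807709 to 5815637, plus strand) is the retinoblastoma-like protein of C. elegans. The pooled list held a summit 346 bp upstream with a signal of 55.0, rank 3099, which is 345 ranks below the end of the IDR list. Replicate 2 had a summit 341 bp upstream at rank 4026 (signal 19.8, q = 0.226), and replicate 1 had none in the window. The nearest IDR summit was 12893 bp away.

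The dpl-1 and lin-52 starts had pooled summits of low rank. DPL-1 (WBGene00001061, chromosome II 9169910 to 9172565, plus strand) is the DP partner of EFL-1, and its gene lies inside the span of T23G7.2 on the opposite strand. Its pooled summit, 208 bp upstream in a non-coding exon part of T23G7.2, had a signal of 32.8 and rank 6078. The strongest summit in its window ranked 14284 in replicate 1 (signal 13.1) and 4218 in replicate 2 (signal 19.4). LIN-52 (WBGene00003035, chromosome III 9824083 to 9824750, minus strand) is the subunit that links MuvB to the pocket protein, as known from its human counterpart. Its pooled summit had a signal of 23.8 and rank 10627, in coding sequence of the neighbour ZK632.9. This summit lay 459 bp upstream of lin-52 and 223 bp downstream of the ZK632.9 start, so both start windows held it. Replicate 1 had summits 283 and 504 bp upstream of lin-52, with signals of 20.3 and 18.3 and ranks of 6642 and 7890. Replicate 2 had none in the lin-52 window. The nearest IDR summits were 56860 bp from dpl-1 and 7335 bp from lin-52.

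No list held a summit in the window or the body of lin-37 (WBGene00003022, chromosome III 7070890 to 7072552, minus strand). LIN-37 is a MuvB subunit needed for repression. The nearest IDR summit was 44314 bp away. With lin-37 as the exception, 8 of the 9 genes had a pooled summit in the window, against 27.9% of all genes. The pooled list includes background peaks by design, and the q values of the dpl-1 and lin-52 summits in it were 0.303 and 0.767. That of the lin-35 summit in the pooled list was 0.00694.

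The genes without a summit differed in their place among neighbours. An operon-like run was taken as protein-coding genes on the same strand with gaps of at most 500 bp, since operons themselves were not annotated in the reference used here. In such runs stood 5 of the 9 DREAM genes (55.6%) and 35.5% of all genes, or 50.7% of all genes with gaps of up to 1000 bp. The lin-37 gene stood last in a run of 5 genes (ZK418.7, ZK418.6, ZK418.13, ZK418.5, lin-37), 60 bp behind ZK418.5. The lin-52 gene stood 126 bp behind ZK632.9 in a run of 2. Neither run had an IDR summit at the start of its leading gene. The pooled summit at ZK418.7 ranked 12267, and that at ZK632.9, the same summit as at lin-52, ranked 10627. The other 7 DREAM genes led a run or stood alone, and 5 of them had an IDR summit, against 6.91% of all genes in that position. Of all genes that stood later in a run, 3.39% had one. The run behind lin-53 held rba-1, its close paralog, then K07A1.10, ate-1, ile-1 and K07A1.15. Behind lin-54 stood JC8.4, cox-11 and JC8.7, and behind lin-36 stood F44B9.5. A lead position did not go with a summit in every case, since lin-35 and dpl-1 stood alone.

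**Figure D3:**
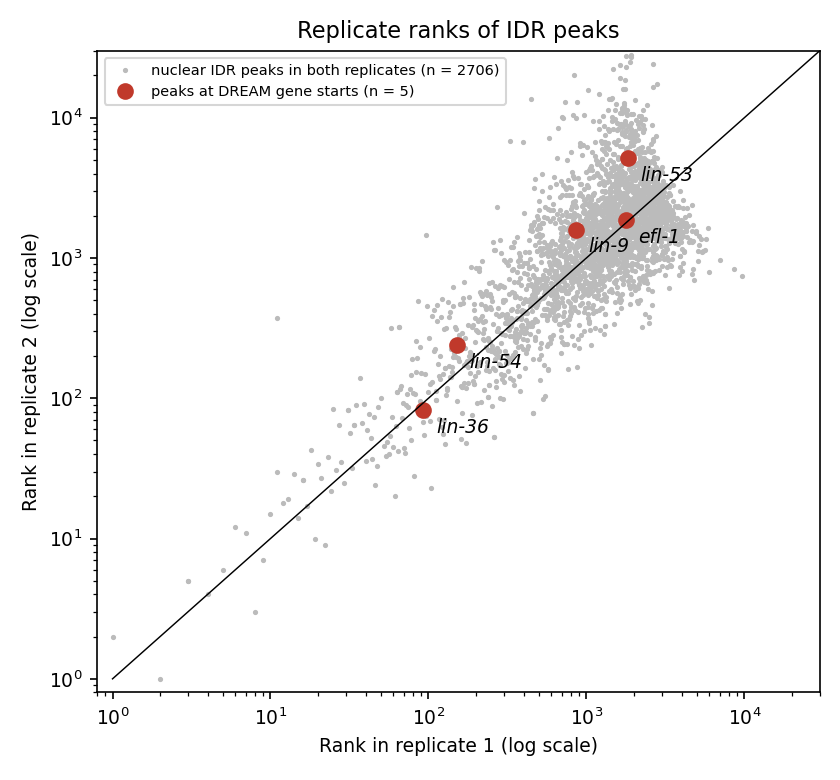
Rank in replicate 1 (x axis) and replicate 2 (y axis), both on log scales, of the 2706 nuclear IDR peaks found in both replicates (grey) and of the 5 peaks at DREAM gene starts (red). The line marks equal ranks. The efl-1 and lin-36 points lie near the line, and lin-53 lies above it with ranks of 1842 and 5186.

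Ranks in the replicates differed by 1.13-fold for lin-36, 1.05-fold for efl-1, 1.59-fold for lin-54, 1.85-fold for lin-9 and 2.82-fold for lin-53. The median over the 2706 peaks was 1.61-fold, and the 90th percentile was 3.62-fold. The replicates' summits at the 5 genes were 9 to 54 bp apart, and the median over all was 28 bp. The genes most like each member were taken as those nearest in log2 rank over the 2 replicates among 1212 other genes with a start summit. For lin-36 these were icd-1 and vps-32.1, which share a peak (ranks 88 and 96), and for lin-54 they were C40H1.3 (147 and 244) and mmad-1 (138 and 224). For lin-9 they were tag-131 (868 and 1652) and ntl-11 (924 and 1675). For efl-1 they were C27C12.1 and C27C12.4, which share a peak (1846 and 1836), and for lin-53 they were Y43F8C.3 (1900 and 5325) and ZK287.7 (1945 and 5240). With ranks from 2 libraries, this likeness is one of level.

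None of the 5 summits had the Meis core site TGACAG within 50 bp on either strand, a site present at 350 of 2732 nuclear IDR summits (12.8%). The PBC-Hox sites TGATTGAT, TGATTTAT and TGATTAAT were absent from the 5 windows too, and occurred at 3.4%, 2.67% and 0.805% of all summits. GAGAGA was at 1 of the 5, in the lin-36 window 42 to 47 bp from the summit, against 31.9% of all summits. As shown above, TTTGAA, the core of the cell cycle element that LIN-54 proteins bind, was present beside the summits of lin-54 and lin-9. It was also present at lin-53, whose sequence is not shown. That made 3 of 5 windows, against 10.1% of all summits and 29.8% of windows of the same width centred 200 bp upstream of all gene starts. In those upstream windows TGACAG occurred in 3.27% and GAGAGA in 7.47%. The PBC-Hox sites, in the order given, occurred there in 0.816%, 1.11% and 0.776%. GCGGGAA, an E2F-type site, was in the efl-1 window, 38 to 44 bp from the summit, against 2.34% of all summits and 1.25% of the windows upstream of starts. The sites TTCGAA and GCGCGAA were in none of the 5, against 3.48% and 1.39% of all summits. In the windows upstream of starts they occurred in 6.52% and 0.666%. The GC content of the windows was 41.6% at lin-36, 37.6% at lin-54, 58.4% at lin-9, 51.5% at efl-1 and 54.5% at lin-53, and the median over all summits was 45.5%. A match or its absence describes these letters in these windows and says nothing about binding of DREAM.

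Related gene lists were counted in the same way. Of 12 other synMuv B genes, 1 (8.33%) had an IDR summit, mep-1, a zinc finger protein gene (signal 77.5, 148 bp upstream). None of 4 synMuv A genes (lin-8, lin-15A, lin-38 and lin-56) and neither of the other E2F genes, efl-2 and efl-3, had one. In a list of 8 genes related to the NuRD remodelling complex, mep-1, counted above too, and dcp-66 had one (76.5, 194 bp upstream). NuRD also uses LIN-53, but lin-53 was counted with DREAM and not in this list. Among 16 cell cycle regulators, 5 had one, 31.2% against the 6.18% of all genes. The strongest were fzr-1, an activator of the anaphase-promoting complex (signal 178, 707 bp upstream), cdk-4, the cyclin D kinase (126, 377 bp upstream), and cye-1, cyclin E (115.3, 574 bp upstream). The other 2 were lin-23, an F-box gene (90.2, 987 bp upstream), and cki-2, a kinase inhibitor gene (65.1, 862 bp upstream). Of these 5 summits, only that of cdk-4 lay in the narrower window of 500 bp before the start and 200 bp after. In that window 884 of 19973 protein-coding genes had a summit. The cdk-4 peak was shared with F18H3.1 and the cye-1 peak with pqn-21. None of 13 DNA replication genes, which include the MCM helicase genes, had a summit, a count of 0 whose exact 95% interval reaches 24.7%. For the synMuv A genes and the other E2F genes the interval reaches 60.2% and 84.2%. For the cell cycle regulators it runs from 11% to 58.7%. The lists were chosen by name with earlier results of these data known, so no interval here tests an excess over all genes. Of the vulval genes lin-3, let-23, lin-39 and let-60, the Hox gene lin-39 had one (88.3, 97 bp upstream). Several of these peaks ranked beyond 2754 in a replicate, as the lin-53 peak did. In replicate 2 these were lin-39 (rank 6282), lin-23 (6684) and dcp-66 (4330), and in replicate 1 it was cki-2 (3863). The lists are small and partly overlap, and differences between them were not tested.

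**Figure D4:**
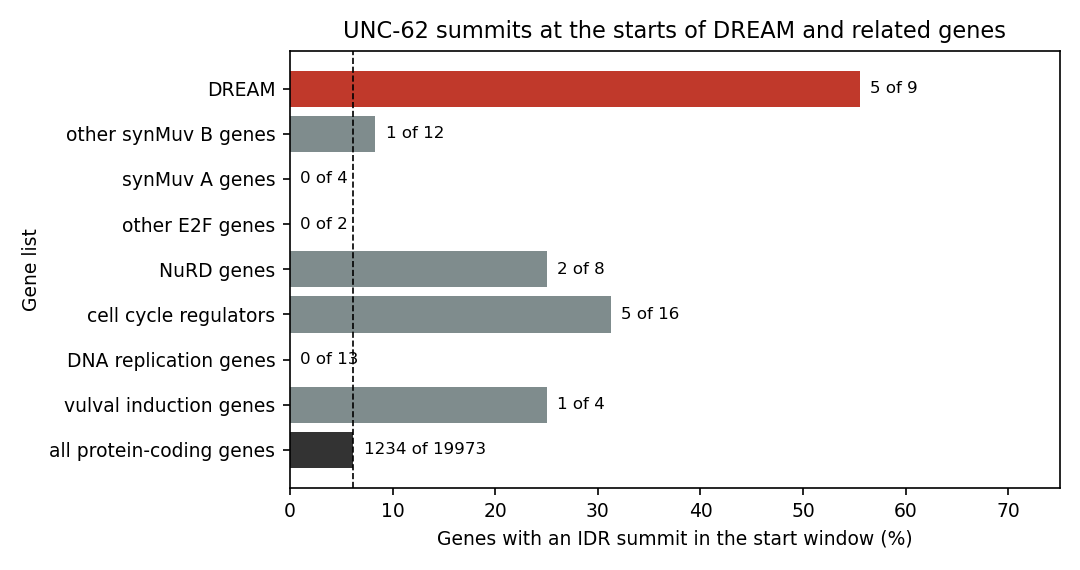
Share of genes (x axis, percent) with an IDR summit in the start window, for the DREAM genes, 7 related lists and all protein-coding genes; labels give the counts and the dashed line the share of all genes. The DREAM bar stands at 55.6% and the cell cycle regulators at 31.2%, against 6.18% for all genes.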

How the data were processed

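Peak lists in narrowPeak format on build ce11 were used. Per the deposited descriptions, replicate lists were made from the alignments of 1 library with a control, the pooled list from those of both libraries, and the IDR list from these 3 lists. Names of the aligner and peak caller, the IDR threshold and the depth of the libraries are not stated in the labels, so depth is unknown. Column 7 holds a signal per peak and column 9 a −log10 q, as the authors deposited them. Signals were compared within a list, by rank. Lists on ce10 were not used.

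Genes and sequence came from the WBcel235 reference (the same assembly as ce11) with the Ensembl release 115 annotation. Starts were the outermost ones annotated for each gene. A replicate's peak was matched to an IDR peak by an overlap of at least 1 bp, taking the strongest. Both strands were scanned for motifs up to 50 bp from each summit. Intervals are exact binomial 95% ones, for counting error alone. Python 3.11.15, numpy 2.4.6, pandas 2.3.3 and scipy 1.17.1 were used. The window and motif rules were tested on simulated data, where 200 of 200 planted summits and 200 of 200 planted motifs were recovered.

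The members and gene lists were chosen with earlier results of these data known. Named were all 9 members, genes sharing a summit or a run with them, the 2 genes nearest in replicate rank, the nearest summit to members without one, and up to 3 genes per list with the strongest peaks. Other neighbours (unc-32, F44B9.2, F44B9.11, T23G7.2), lin-23 and cki-2 were named after their values were seen. Alternatives were other windows, other starts, the stronger IDR peaks, the pooled list, each replicate alone, another match of replicate peaks, other motif widths and another gap.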

Additional observations from a re-analysis of the deposited data

How the results depend on the processing

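The 5 DREAM genes with a summit at the start were the same genes with a narrow window (500 bp before the start, 200 bp after), a wide one (2000 bp before) and any annotated transcript start, while the count of all genes was 884, 1775 and 1370, against 1234 as reported. The 2754 strongest pooled peaks are the IDR list itself, so that alternative could not change a count. The wide window added a summit at lin-9, making 6 summits. With the strongest 1377 IDR peaks 3 genes (lin-9, lin-54 and lin-36) with 3 summits were left, also with the gene body added, and 572 genes in all. Counting each summit for its nearest protein-coding start, a rule added after seeing the data, left 3 DREAM genes. With each replicate alone, the counts of DREAM genes and of summits ran from 4 to 5 and the count of all genes from 1185 to 1241. GAGAGA was near 0 of the 5 summits within 25 bp and near 2 within 100 bp, lin-9 being added, while TGACAG was near 0 in both. Replicate ranks did not move when the nearest summit within 100 bp was taken, and a gap of 1000 bp left 5 DREAM genes in operon-like runs, against 50.7% of all genes. At that gap ZK632.10 led the lin-52 run, and it had no IDR summit at its start. No paired analysis was possible because there is 1 group. Depth is unknown, so how it limits weak peaks such as those at lin-35 and lin-53 cannot be given.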

Other observations

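The peaks of efl-1, lin-9 and lin-54 shared the letters TGGAGCGC on the plus strand within 50 bp of the summit. This was noticed on reading the sequences, so the motif was chosen after its matches were seen, and no test was made. It began 12, 36 and 13 bp to the right of the summit in those 3 windows. From its first base on, the efl-1 and lin-54 windows were equal at 14 of 15 bases. The lin-36 and lin-53 windows lacked it. It occurred at 32 of 2732 nuclear IDR summits (1.17%) and in 0.501% of windows of the same width upstream of all gene starts. Of those 32 summits, 31 lay in the start window of a protein-coding gene, as did 1008 of all 2732 summits. In the whole window from 1000 bp upstream to 500 bp downstream, the same 3 of the 9 DREAM genes had it, against 4.66% of all genes. A further hexamer, ACGCAG, was at the efl-1 and lin-54 summits, at 14.2% of all summits and in 2.92% of the windows upstream of starts. It too was picked after the sequences were seen.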
